A study of Mus musculus with 10 samples.

Results

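The windows described here are the 5 kb windows that lie over very long genes in Setd1b cKO and WT germinal vesicle (GV) oocytes. A gene counted as very long when the table gave its symbol to 60 or more windows of 1 autosome, which is about 300 kb or more. This held for 517 of 23484 autosomal symbols, and their windows numbered 56980 of 544879 in the table, or 11.6% of the autosomal windows. The smallest of these genes had 60 windows, the median had 87 and the largest had 878. No filter on low values was applied, so all 517 genes and all their windows were tested. The rule used gene length and no H3K4me3 value. Symbols with 60 to 64 windows, just inside the limit, numbered 68, and symbols with 55 to 59 windows, just outside it, numbered 80.

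H3K4me3 was profiled by ULI-nChIP-seq, a native chromatin immunoprecipitation for very few cells, in GV oocytes of 21-day-old females, whose strain the labels give as C57BL6 and the methods as C57BL/6OlaHsd. About 200 oocytes were pooled for each library, and each genotype had 3 H3K4me3 libraries. The authors had made a further library of each genotype and excluded it for quality after seeing its data, so the libraries compared are a selection. The cKO females were Setd1b floxed/floxed and positive for Gdf9-Cre, which acts from early folliculogenesis onwards. Their libraries carry the replicate numbers 1, 3 and 4. WT females were labelled Setd1b floxed/floxed and Gdf9-Cre negative, and theirs carry the numbers 1, 2 and 4. The methods also count females with 1 deleted and 1 wild-type allele and Gdf9-Cre as WT, so whether Cre was absent from every WT library rests on the labels. The question asked was how the loss of SETD1B changes H3K4me3 in the oocyte, here along the bodies of very long genes. Because oocytes were pooled, a change in every oocyte and a change in some of them cannot be told apart.

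H3K4me3 is the trimethylated form of lysine 4 of histone H3, and in most cells it sits in narrow peaks over the CpG-rich starts of active genes. Oocytes differ, since during growth H3K4me3 spreads into broad domains away from promoters, mostly where DNA methylation is absent, while transcribed gene bodies gain DNA methylation. SETD1B belongs to a family of enzymes that place this mark. Its complex includes CXXC1, a partner whose CXXC zinc finger binds unmethylated CpG dinucleotides. Nearly all of a very long gene is intron, far from any start, and many genes of this length encode adhesion proteins and ion channels best known from neurons or lie at common fragile sites.

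The sequences of 4 windows show examples of the DNA in windows that changed. For the strongest gain window, 1 of the 5 strongest loss windows, the start window with the strongest gain and 1 of the 3 start windows that lost, the 300 bases outside exons with the most CG dinucleotides are printed, from the GRCm38 plus strand, with each CG in capitals. Across all autosomal windows the median number of CG dinucleotides per 5 kb was 36.0.
Nell2, intron, gain, chr15:95485971-95486270: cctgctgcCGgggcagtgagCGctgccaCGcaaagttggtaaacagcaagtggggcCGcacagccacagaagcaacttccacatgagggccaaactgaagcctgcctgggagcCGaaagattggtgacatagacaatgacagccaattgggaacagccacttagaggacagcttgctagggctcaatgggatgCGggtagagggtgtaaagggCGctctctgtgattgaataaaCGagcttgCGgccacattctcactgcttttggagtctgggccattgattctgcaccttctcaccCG
Cpne4, intron, loss, chr9:104894139-104894438: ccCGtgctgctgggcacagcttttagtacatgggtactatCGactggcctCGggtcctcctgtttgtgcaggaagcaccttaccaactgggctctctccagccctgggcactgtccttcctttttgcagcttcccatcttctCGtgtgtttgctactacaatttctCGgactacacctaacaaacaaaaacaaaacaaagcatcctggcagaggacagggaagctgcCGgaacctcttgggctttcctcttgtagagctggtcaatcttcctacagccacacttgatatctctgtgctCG
2010111I01Rik, start window, gain, chr13:62964569-62964868: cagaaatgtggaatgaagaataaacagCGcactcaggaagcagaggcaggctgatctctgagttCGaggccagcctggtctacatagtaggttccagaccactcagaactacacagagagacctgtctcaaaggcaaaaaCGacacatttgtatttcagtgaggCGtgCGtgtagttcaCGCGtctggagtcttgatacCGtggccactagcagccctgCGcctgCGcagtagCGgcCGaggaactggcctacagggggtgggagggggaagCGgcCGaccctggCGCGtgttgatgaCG
Rere, start window, loss, chr4:150281343-150281642: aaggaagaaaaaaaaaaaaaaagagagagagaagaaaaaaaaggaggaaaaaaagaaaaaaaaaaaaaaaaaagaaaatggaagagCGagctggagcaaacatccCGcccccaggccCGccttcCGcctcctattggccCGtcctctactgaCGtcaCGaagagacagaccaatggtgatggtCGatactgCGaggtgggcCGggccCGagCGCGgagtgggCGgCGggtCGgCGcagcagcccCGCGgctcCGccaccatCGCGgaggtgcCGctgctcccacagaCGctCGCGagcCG

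The Nell2 stretch held 10 CG dinucleotides and its 5 kb window 65, a number reached by 14.7% of autosomal windows. The Cpne4 stretch held 7 and its window 39, which 45.8% of autosomal windows reached. The stretches from the starts of 2010111I01Rik and Rere held 17 and 27, and their windows 77 and 137. A CG count is a description of the DNA and says nothing about its methylation in these oocytes.

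The values compared are enrichment-normalized RPKM, the authors' scale on which all 6 libraries have the same low and high percentiles. A window without a read does not have the value 0 on this scale but a value of its own in each library, between -1.02 in cKO replicate 3 and 0.810 in WT replicate 1, so results are given as differences and never as folds. Reads in windows ranged from 10856015 in WT replicate 2 to 32775874 in WT replicate 4. A very long gene held a median of 2506 reads per library and at least 207. The window over the start of Setd1b, which does not check the deletion itself, read 6.11 to 7.65 in WT and 3.93 to 4.66 in cKO (adjusted p = 0.0332, limma over all windows). Over the start windows of 8 oocyte genes, the summed value was 45.2 to 49.4 in WT and 43.5 to 44.0 in cKO, with 3 of the 8 higher on average in cKO and 0 passing the test in either direction. Among them Gdf9 averaged 7.46 in WT and 10.7 in cKO, and Zp2 6.78 and 4.12. Over 6 granulosa cell genes it was 20.4 to 21.0 in WT and 27.3 to 29.1 in cKO, with all 6 higher on average in cKO and Foxl2 passing the test (adjusted p = 0.0415), while the 3 leukocyte genes Ptprc, Cd14 and Lyz2 summed to 7.24 to 9.47 in WT and 6.82 to 11.5 in cKO. The part of these differences in the results below was not tested. Among the cKO libraries, replicate 1 stood closer to WT than the other two over CpG-poor DNA, and counts are given with and without it.

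H3K4me3 over the very long genes as a whole was slightly higher in cKO. Averaged over all 56980 windows, WT replicates 1, 2 and 4 read 1.88, 1.77 and 1.89, and cKO replicates 1, 3 and 4 read 2.01, 1.96 and 1.91. Every cKO library stood above every WT library, with a smallest gap between cKO replicate 4 and WT replicate 4. The difference was 0.111 between means of 1.96 ± 0.0528 in cKO and 1.85 ± 0.0658 in WT (SD, n = 3), and the exact two-sided permutation test gave p = 0.1, the smallest value that 3 against 3 libraries can reach. With the 5 symbols left out that span the starts of 4 or more other protein-coding genes, the difference was 0.0998 and the groups overlapped (exact p = 0.2).

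Windows over shorter genes moved in the same direction and those without a symbol did not. Windows over shorter genes averaged 2.15 to 2.23 in WT and 2.32 to 2.47 in cKO, a difference of 0.197 without overlap (exact permutation p = 0.1, n = 3), so the increase was not particular to very long genes. Windows without a symbol averaged 1.95 to 2.21 in WT and 1.80 to 2.10 in cKO, a difference of -0.185 with overlapping groups. The gap between very long genes and all other autosomal windows narrowed from -0.283 ± 0.0385 in WT to -0.125 ± 0.0426 in cKO, without overlap of the libraries (exact permutation p = 0.1, n = 3). Between very long genes and shorter genes the gap was -0.340 in WT and -0.426 in cKO, with overlapping libraries (exact permutation p = 0.4, n = 3).

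Along a very long gene, H3K4me3 was high at the start and low in the body. The 516 distinct windows that hold the annotated starts averaged 4.21, 3.86 and 4.01 in WT replicates 1, 2 and 4, and 4.50, 3.99 and 4.25 in cKO replicates 1, 3 and 4. The groups overlapped, and the difference of 0.221 did not exceed the spread between libraries (exact permutation p = 0.3, n = 3). Windows inside the gene and over 25 kb from the start averaged 1.74 to 1.86 in WT and 1.87 to 1.98 in cKO, without overlap. Windows that hold no exon averaged 1.76 to 1.90 in WT and 1.89 to 2.01 in cKO, and these overlapped (difference 0.102, exact permutation p = 0.2, n = 3). The start stood 2.21 ± 0.135 above the interior in WT and 2.32 ± 0.236 in cKO, and this contrast did not differ beyond its spread (exact permutation p = 0.6, n = 3). Its difference of 0.110 turned to -0.200 on log2(RPM + 0.5), and was 0.00972 without cKO replicate 1 and 0.240 without cKO replicate 3.

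**Figure D1:**
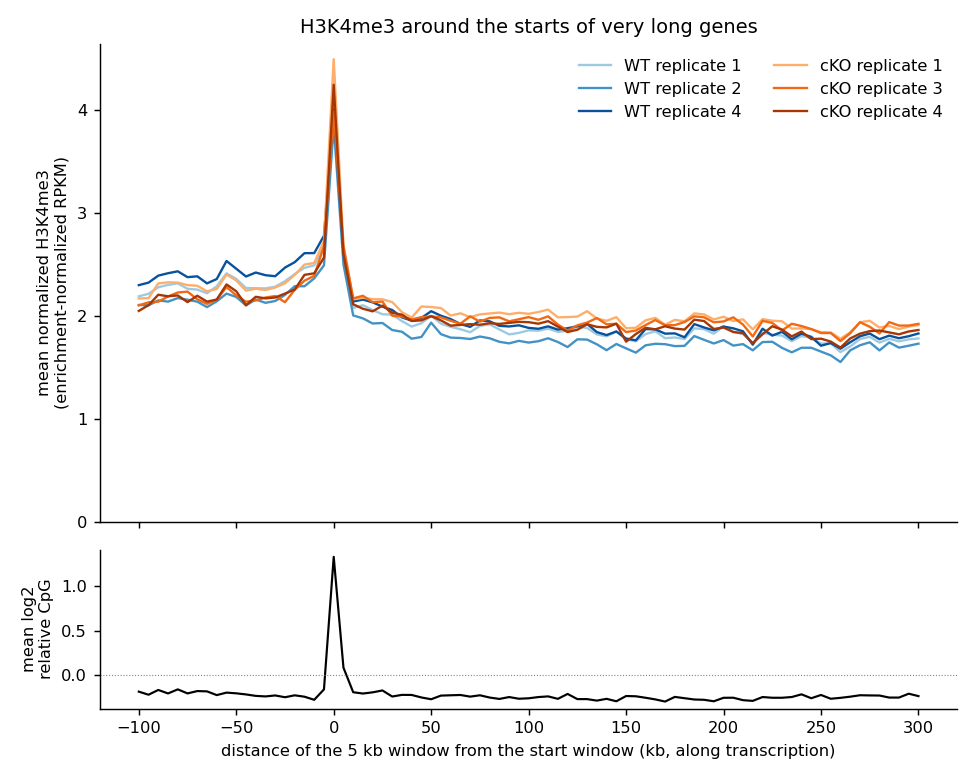
Mean enrichment-normalized RPKM of the 5 kb windows around the starts of the very long genes, for each of the 6 libraries (upper panel), and the mean log2 relative CpG content of the same windows (lower panel), against distance from the start window in kb along the direction of transcription. All libraries peak at the start window and fall to about the level of the body within a few windows, and WT replicate 2 runs lowest along the body.

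The fall from the start was steep. Windows centred 2.5 to 10 kb past the start averaged 2.40 in WT and 2.47 in cKO, windows at 25 to 50 kb 1.93 and 2.03, and windows at 200 to 400 kb 1.74 and 1.87. In the bins from 50 to 800 kb every cKO library was above every WT library, with differences from 0.109 to 0.127. Past 800 kb, which only the longest genes reach, the values were 1.98 in WT and 2.03 in cKO and the libraries overlapped. The log2 CpG content relative to the whole genome averaged 1.36 at the start and -0.32 between 400 and 800 kb.

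Gene bodies differed widely in level. Averaged over all its windows, a gene read 0.752 to 3.72 in WT, with a median of 1.75 and quartiles of 1.45 and 2.12. Of all member windows, 5.99% in WT and 6.94% in cKO were above the 90th percentile of autosomal windows. Only 24 genes averaged over 3 in WT and 17 averaged under 1.

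None of the 6 genes with the highest WT level passed the test. Slc39a11, a zinc transporter gene on chromosome 11, read 3.67, 3.70 and 3.80 in WT replicates 1, 2 and 4 and 3.73, 4.19 and 4.21 in cKO replicates 1, 3 and 4. The lowest cKO library fell among the WT libraries, and the difference of 0.320 ± 0.138 (SE) did not pass the test (adjusted p = 0.172, limma over all autosomal symbols). Nedd4l, a ubiquitin ligase gene, averaged 3.59 in WT and 3.98 in cKO, and Hecw2, another ubiquitin ligase gene, 3.39 and 3.44. Dlc1, which encodes a GTPase-activating protein, averaged 3.58 and 3.46, and Cntnap4, a contactin-associated adhesion gene, 3.52 and 3.27. For the transcription factor gene Nfib the means were 3.39 in WT and 3.77 in cKO, and all cKO libraries exceeded all WT libraries, but its adjusted p was 0.135. The WT libraries of neighbours in this order overlapped.

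At the other end stood genes with low values in all 6 libraries. Pcdh9, a protocadherin gene of 175 windows, read 1.05, 0.686 and 0.847 in WT and 1.12, 0.481 and 0.535 in cKO. In both genotypes replicate 1, whose value at 0 reads was highest of its group, was also the highest library for Pcdh9. The potassium channel gene Kcnh8 averaged 0.828 in WT and 0.820 in cKO, and the ubiquitin ligase gene March1 0.849 and 0.696. The predicted genes AC238840.3 and Gm10649 averaged 0.780 and 0.833 in WT, and over AC238840.3 the 4 inputs were low too, at 0.489 to 0.560. None of the 17 genes under 1 in WT passed the test, and 2 of them had an unadjusted p under 0.05.

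Across the whole set, 329 of 517 genes had a higher gene-body mean in cKO. The test passed 85 genes as higher and 10 as lower (limma, adjusted p under 0.05 over 23484 symbols, with a variance prior that follows the number of windows), while 422 did not pass. That is 16.4% and 1.93% of the very long genes. Over all autosomal symbols the same test called 6.60% higher and 1.84% lower. The share called higher went up with the number of windows a symbol has, from 2.52% of symbols with 1 window to 14.3% with 20 to 59 windows, 17.3% with 60 to 99 and 15.0% with 100 or more, so very long genes were called about as often as genes of 20 to 59 windows. The median difference was 0.122 over the very long genes, with quartiles of -0.108 and 0.363, against 0.145 over all symbols.

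Counted without a test, 200 genes (38.7%) had every cKO library above every WT library and 32 (6.19%) had every one below, and in 285 the libraries overlapped. Of all autosomal symbols, 23.0% were fully above and 7.98% fully below. How many genes pass depended on the setting. A constant variance prior left 3 higher and 0 lower, with 94 genes at an unadjusted p under 0.05, and edgeR on the reads summed per gene passed 0, with 130 at an unadjusted p under 0.05. All 95 called genes kept the sign of their difference under these settings and every other one tried, including the removal of each library. Leaving out WT replicate 1, 2 or 4 left 26, 29 and 31 genes higher and 0, 5 and 0 lower, and leaving out cKO replicate 3 or 4 left 46 and 35 higher and 3 and 0 lower. Without cKO replicate 1 the counts were 164 higher and 64 lower, and all 95 were among them.

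**Figure D2:**
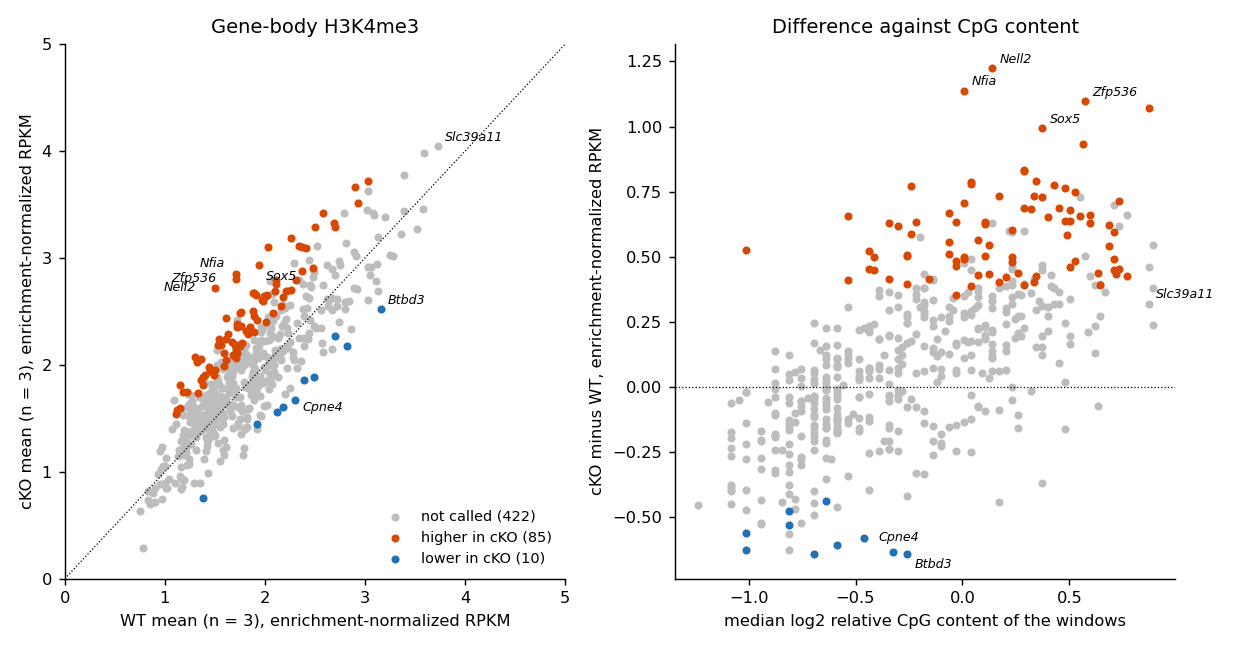
Each point is 1 very long gene. The left panel plots the mean of the 3 cKO libraries against the mean of the 3 WT libraries in enrichment-normalized RPKM, with the line of equality dotted, and the right panel plots cKO minus WT against the median log2 relative CpG content of the gene's windows. The 85 genes higher in cKO lie toward the CpG-rich side and the 10 lower genes on the CpG-poor side.

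The largest increase was over Nell2, which encodes a secreted glycoprotein with EGF-like repeats made by neurons. Its 63 windows on chromosome 15 (95215001 to 95530000) averaged 1.53, 1.38 and 1.58 in WT replicates 1, 2 and 4 and 2.73, 2.83 and 2.60 in cKO replicates 1, 3 and 4. The lowest cKO library was well above the highest WT library. The difference was 1.22 ± 0.115 (SE, adjusted p = 0.00109, limma), and 87.3% of the windows were higher in cKO.

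Nfia, a nuclear factor I transcription factor gene, came next. It read 1.66, 1.75 and 1.71 in WT and 2.38, 3.27 and 2.89 in cKO, so the 3 cKO libraries differed among themselves by more than the WT libraries did. All 68 of its windows (100%) were higher in cKO on average, but only 1 window passed the test on its own. The gene-body difference was 1.14 ± 0.188 (adjusted p = 0.00741).

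Zfp536, which encodes a zinc finger repressor of neuronal differentiation, read 1.65, 1.70 and 1.78 in WT and 2.75, 2.85 and 2.82 in cKO. Here the cKO libraries lay close together. Its difference of 1.10 ± 0.105 (adjusted p = 0.00109) was about as large as that of Trio, a guanine nucleotide exchange factor gene, at 1.07 ± 0.159 (adjusted p = 0.00508).

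Sox5, a transcription factor gene of the SoxD family, was the longest of the 6 with 192 windows on chromosome 6 (143825001 to 144785000). WT replicates 1, 2 and 4 read 1.82, 1.98 and 2.01, and cKO replicates 1, 3 and 4 read 2.95, 2.94 and 2.90. The difference was 0.993 ± 0.0972 (adjusted p = 0.00109). Aff3, which encodes a nuclear protein of the AF4/FMR2 family, rose from 2.26 ± 0.200 to 3.19 ± 0.117 (SD, n = 3; limma adjusted p = 0.00382). In cKO these 6 genes reached means of 2.72 to 3.19, above the upper quartile of WT gene means.

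Decreases were fewer and smaller. Ccdc178, a coiled-coil gene on chromosome 18, read 2.79, 2.65 and 3.02 in WT and 2.31, 2.11 and 2.11 in cKO, a difference of -0.642 ± 0.126 (adjusted p = 0.0146). Btbd3, a BTB domain gene that orients dendrites in neurons, read 3.23, 2.93 and 3.32 in WT and 2.80, 2.36 and 2.40 in cKO (difference -0.639 ± 0.150, adjusted p = 0.0291). Neither gene had a single window that passed the test, and 8.22% and 16.4% of their windows were higher in cKO.

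Cpne4, which encodes a copine, a calcium-dependent phospholipid-binding protein, read 2.23, 2.11 and 2.57 in WT and 1.51, 1.76 and 1.75 in cKO. The groups did not overlap, and the difference was -0.633 ± 0.136 (adjusted p = 0.0205). Skint5, of an immunoglobulin family of skin and thymus, fell from 1.38 ± 0.157 to 0.756 ± 0.273 (SD, n = 3; limma adjusted p = 0.0283). The predicted gene Gm14066 fell from 2.49 ± 0.163 to 1.89 ± 0.231 (SD, n = 3; limma adjusted p = 0.0270). Itgbl1, an integrin beta-like gene, had a difference of -0.624 ± 0.191 but its libraries overlapped and its adjusted p was 0.0692.

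Further genes called lower were Rgs7, a regulator of G protein signalling (-0.580), the contactin-associated gene Cntnap5c (-0.559), the contactin gene Cntn4 (-0.475) and the adhesion gene Negr1 (-0.435). All 10 had every cKO library below every WT library. Without WT replicate 1, WT replicate 4 or cKO replicate 4, 0 of the 10 passed, with 170, 172 and 172 very long genes at an unadjusted p under 0.05.

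Input libraries were available only for replicates 1 and 4 of each genotype, and their values are a description without a test. Over the very long genes the input signal averaged 2.08 and 2.10 in WT and 2.08 and 2.08 in cKO. The ratio of cKO to WT input per gene had a median of 0.999 and ran from 0.915 to 1.10 over all 517 genes, from 0.928 to 1.10 over the 85 higher genes and from 0.943 to 1.04 over the 10 lower genes.

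Single windows gave a finer view. Of the 56980 windows, 432 gained and 150 lost H3K4me3 (limma, adjusted p under 0.05 over all 544879 windows), or 0.758% and 0.263%. Over all windows the shares were 0.563% and 0.454%. Gains and losses made up 0.995% and 0.371% of the windows over shorter genes and 0.376% and 0.504% of those without a symbol. In all 582 called windows the libraries did not overlap, while 13.9% of member windows had every cKO library above every WT library and 6.44% every one below, against 9.88% and 9.95% of all windows.

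These counts depended on the scale and on single libraries. edgeR on the recovered reads called 984 gains and 315 losses, of which 220 and 75 were among those above. On log2 scales and after quantile normalization limma called 0, where 6893 to 9381 windows had an unadjusted p under 0.05, against 7729 in the reported test. Leaving out any 1 WT library or cKO replicate 4 also left 0 of either kind, while 5106 to 6633 had an unadjusted p under 0.05. Without cKO replicate 3 there were 204 gains and 37 losses, and without cKO replicate 1 there were 1109 and 450. No called window was called in the opposite direction under any of these settings.

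The called windows were chosen by their difference, so their levels are a description. The median gain window read 1.88 in WT and 4.42 in cKO, and the median loss window 4.52 in WT and 2.08 in cKO. Gain windows held a median of 57 CG dinucleotides and loss windows 34.5, where the median over all member windows was 34.0. Most called windows were in introns, as 349 of the gains and 116 of the losses touched no exon of the GENCODE M21 model and lay inside it. An exon was present in 16.9% of gains, 22% of losses and 17.5% of all member windows, and an annotated transcript start of the same gene in 5.79%, 6.67% and 3.42%. Over 25 kb from the start and inside the gene lay 404 of the 432 gains and 141 of the 150 losses, or 93.5% and 94%, where 94.3% of all member windows did.

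The largest single gain was in the first part of Nell2, 41.1 kb from the start at chr15:95485001-95490000, the window whose sequence is printed above. It read 1.60, 1.62 and 1.44 in WT and 5.83, 5.19 and 7.64 in cKO (difference 4.67 ± 0.559, adjusted p = 0.0148). A further Nell2 window at 56.1 kb, which holds an exon, averaged 1.74 in WT and 6.23 in cKO. In Grip1, which encodes a scaffold protein of AMPA receptors, an intron window 179 kb from the start read 1.28, 1.03 and 1.11 in WT and 5.28, 5.72 and 6.24 in cKO. The others of the 5 largest gains were in introns of Tmem132c, a transmembrane protein gene, with means of 1.10 and 5.64, and of Agap1, an Arf GTPase-activating protein gene, with 2.50 and 6.82.

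The largest loss lay in an intron of Ldlrad4, which encodes an inhibitor of TGF-beta signalling. This window read 7.14, 8.33 and 7.13 in WT and 2.12, 3.08 and 3.11 in cKO (difference -4.77 ± 0.451, adjusted p = 0.0109), although the gene body as a whole averaged 1.87 in WT and 1.90 in cKO. The Cpne4 window printed above, at chr9:104890001-104895000 and 345 kb from the start, read 6.30, 6.58 and 5.49 in WT and 1.84, 2.55 and 2.05 in cKO (difference -3.98 ± 0.399, adjusted p = 0.0120). Means fell from 9.31 to 5.42 in a Gm20388 window, from 8.72 to 4.96 in a window under the symbol Arhgap26 that lies outside the GENCODE M21 gene, and from 7.90 to 4.25 in an intron of Schip1.

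Genes differed in the number of calls, and also in length. At least 1 gain was found in 158 genes and at least 1 loss in 80, and 20 genes had both while 299 had neither. The 25 genes with 5 or more gains held 190 of the 432, and the 6 genes with 5 or more losses held 51 of the 150. Next to another window called the same way stood 90 gains and 32 losses, and the same count was not made outside these genes. Whether calls cluster more than the lengths of the genes would give was not tested.

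Sox5 had the most gains, 21, spread from its start to 834 kb. The stretch between the first and the last of them covered 168 windows and averaged 1.83, 1.98 and 2.00 in WT and 3.07, 3.02 and 2.99 in cKO. Gains fell on the window of the main start and on that of an annotated alternative start 834 kb into the gene, among others. The other 24 windows, past the last gain, averaged 1.96 in WT and 2.25 in cKO.

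Nell2 gained in 11 windows from 1.06 to 311 kb, that is over its whole length. Grip1 also gained in 11, from 43.7 to 364 kb, and its 61 windows outside this stretch averaged 1.89 in WT and 2.34 in cKO. Prkca, which encodes protein kinase C alpha, and the attractin-like gene Atrnl1 gained in 9 windows each. In Atrnl1 the 9 gains lay between 351 and 506 kb, where 32 windows averaged 1.97 in WT and 3.61 in cKO, while the other 73 windows averaged 2.18 and 2.38. The stretch was outlined by its called windows, so its means are a description. Over the whole body of Atrnl1 the difference was 0.638 ± 0.111 (adjusted p = 0.00897).

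Losses were confined to stretches in the genes that had 5 or more of them, with the exception of Cntn4, whose 5 spread from 170 to 925 kb, and of Gm20388. In Cpne4 all 15 lay between 195 and 470 kb. The 56 windows of that stretch averaged 2.82, 2.74 and 3.34 in WT and 1.48, 1.68 and 1.73 in cKO. Its other 42 windows averaged 1.45, 1.27 and 1.54 in WT and 1.56, 1.86 and 1.77 in cKO, the opposite order. In cKO the means of this stretch and of the other windows were 1.63 and 1.73. Of 6 losses in Cntnap5c all were between 473 and 593 kb, where means went from 2.35 to 1.22, and the 5 losses of Skint5 were between 227 and 357 kb, where means went from 2.25 to 0.989. These stretches were outlined by their called windows, so their means are a description.

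**Figure D3:**
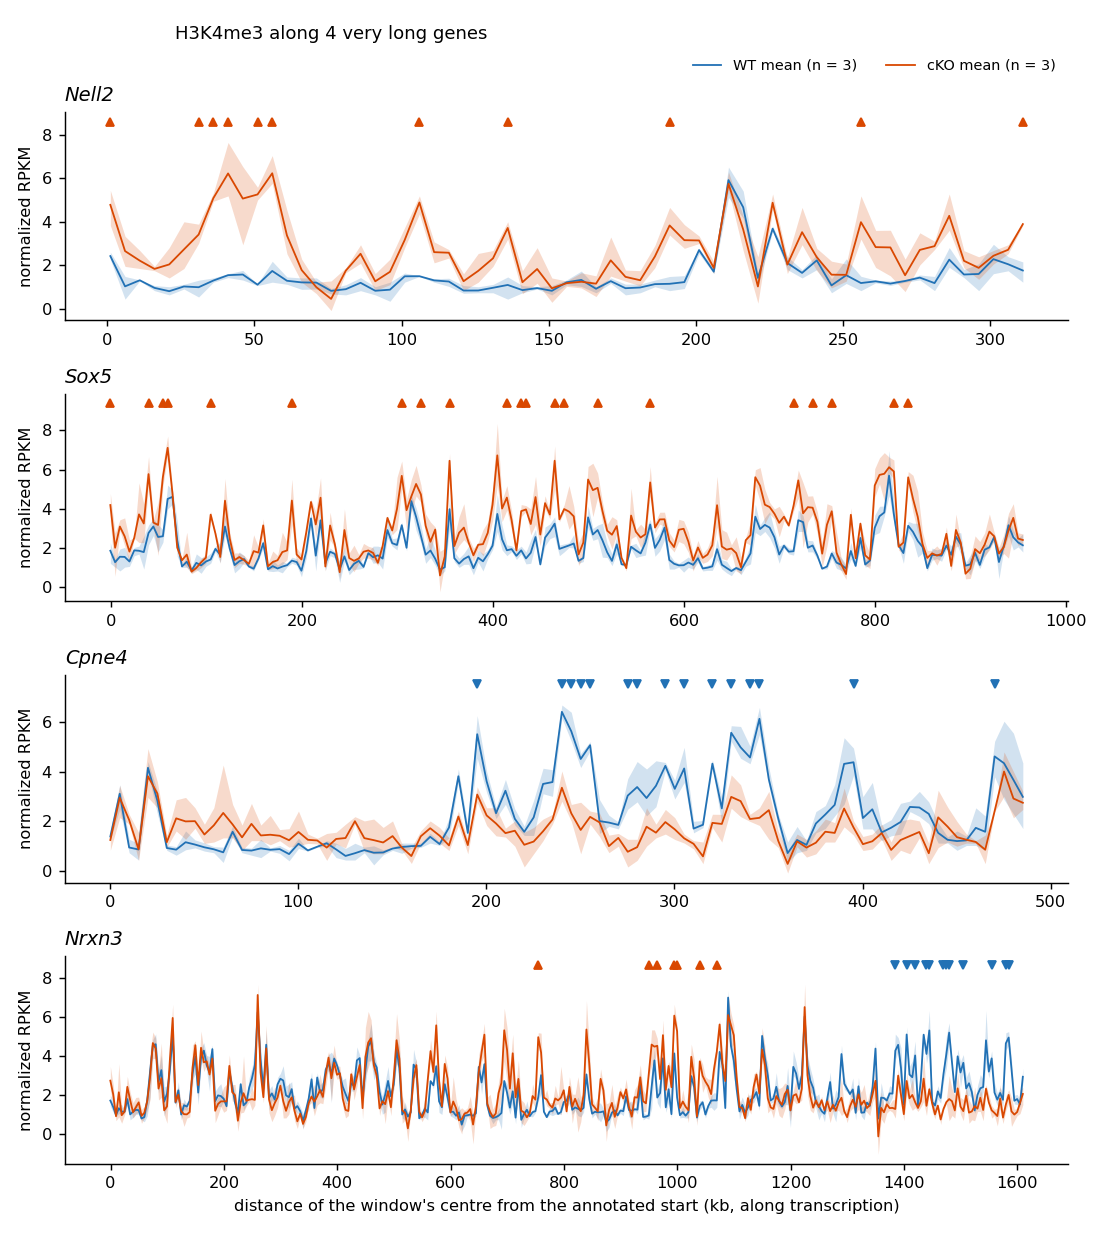
Mean enrichment-normalized RPKM in 5 kb windows along Nell2, Sox5, Cpne4 and Nrxn3, against distance from the annotated start in kb, for WT (blue) and cKO (orange). Lines are means of 3 libraries, shading spans the lowest to the highest library, and triangles mark windows called as gains (up) or losses (down). Nell2 and Sox5 carry gains along most of their length, the 15 losses of Cpne4 lie in its middle and distal part, and Nrxn3 has 7 gains followed by 12 losses.

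Nrxn3, a presynaptic neurexin gene of 323 windows on chromosome 12, changed in both directions without a change in its mean. Gene-body values were between 2.11 and 2.36 in WT and between 2.07 and 2.26 in cKO (difference -0.0464 ± 0.104, adjusted p = 0.801). Its 7 gains lay between 755 and 1070 kb from the start, where 64 windows averaged 1.58 in WT and 2.44 in cKO. All 12 losses lay between 1385 and 1585 kb, where 41 windows averaged 3.08, 2.89 and 3.41 in WT and 1.58, 1.56 and 1.72 in cKO. The last transcript start that GENCODE M21 annotates in Nrxn3 is at 1090 kb, between the gains and the losses.

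Pde4d, which encodes a cAMP phosphodiesterase, also had calls in both directions, in stretches that overlapped. Its 3 losses were between 188 and 473 kb and its 8 gains between 373 and 1463 kb. The gene-body mean was 1.75 in WT and 2.13 in cKO, with an adjusted p of 0.0520. The other genes with both kinds of call had 1 to 3 losses each, apart from Gm20388, and neighbouring windows could differ in direction. Slc39a11 lost at 408 kb, with window means of 6.84 in WT and 4.15 in cKO, and gained 388 kb from its start, with 1.40 and 4.16.

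Of the 10 longest symbols 1 passed the test as a whole. Gm20388 (878 windows) and Fgfr2 (593 windows) owe their size to table entries that span other genes, with 72 and 30 starts of other protein-coding genes inside them. Gm20388 had 13 gains and 8 losses, and its mean was 2.49 in WT and 2.87 in cKO (adjusted p = 0.0756). Fgfr2, a fibroblast growth factor receptor gene, averaged 2.01 and 2.40 (adjusted p = 0.0490), and was the gene that passed.

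The others span at most 2 starts of other coding genes. Ptprd, a receptor tyrosine phosphatase gene, averaged 1.84 in WT and 1.78 in cKO over 455 windows, and Cntnap2, a contactin-associated gene, 1.53 and 1.51 over 449. Neither had a called window. Lrp1b, of the LDL receptor family, averaged 1.83 and 1.51, Macrod2, an ADP-ribosylhydrolase gene, 1.89 and 1.70, and Csmd1, a CUB and sushi domain gene, 2.28 and 2.07, with 1 loss window each. Fhit, a fragile site hydrolase gene, averaged 1.69 and 1.78, and Ctnna3, an alpha-catenin gene, 2.23 and 2.30. In Csmd1 the libraries nearly separated, with 2.13 as the lowest WT value and 2.16 as the highest cKO value, but its adjusted p was 0.238.

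Start windows changed in few genes. They were found from the annotated start, and for 440 of the 517 genes the window carries the gene's own symbol in the table, while for the others, 2010111I01Rik and AW554918 among them, it lies outside the member windows of that gene. Of 516, 8 gained and 3 lost, or 1.55% and 0.581%, where all autosomal windows with the start of a protein-coding gene gained in 1.24% and lost in 0.756%. The median start window read 3.97 in WT and 4.47 in cKO, and 325 of 516 were higher in cKO. In WT, 214 start windows were above the 90th percentile of autosomal windows and 46 were at or below the autosomal median. Of the 8 start gains, 6 were in genes whose body was called higher, and 0 of the 3 start losses were in genes whose body was called lower. Among all very long genes 16.4% were called higher and 1.93% lower. A start window with the gene's own symbol is part of the body mean, so start and body calls are not independent.

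The strongest start gain was at 2010111I01Rik, an aminopeptidase gene, at chr13:62960001-62965000. It read 2.33, 1.42 and 1.38 in WT and 6.28, 4.79 and 5.52 in cKO (difference 3.82 ± 0.457, adjusted p = 0.0148), while its gene body averaged 1.72 and 2.02 and did not pass (adjusted p = 0.269). Bcas3 rose at its start from 1.28 ± 0.141 to 4.09 ± 0.740 (SD, n = 3; limma adjusted p = 0.0241), and Msi2, which encodes a Musashi RNA-binding protein, from 3.13 ± 0.308 to 5.69 ± 0.522 (limma adjusted p = 0.0250). Tmtc2, an O-mannosyltransferase gene, rose from 3.24 to 5.93 (adjusted p = 0.0458). At Adamtsl1, of the ADAMTS-like matrix proteins, the means were 2.47 and 5.78, but cKO replicate 3 stood at 8.09 against 4.06 and 5.18 and the adjusted p was 0.0948. Start gains that also passed were at Nell2, Sox5 and the glutamate receptor gene Grid1, among others.

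The 3 start losses began from unlike WT levels. AW554918, which had the highest WT start of all with 10.8, 11.5 and 8.21, read 6.16, 6.38 and 5.76 in cKO (difference -4.07 ± 0.713, adjusted p = 0.0363). Rere, a nuclear co-regulator gene whose start is printed above, read 7.93, 9.11 and 6.89 in WT and 5.33, 5.19 and 4.85 in cKO (difference -2.85 ± 0.518, adjusted p = 0.0392). Its gene body went the other way, from 1.70 to 2.11, without passing (adjusted p = 0.0702). Palld, the palladin gene, lost at its start from 3.18, under the median start window, to 1.33 (adjusted p = 0.0357). At Lama2, a laminin gene, Hs3st5, a heparan sulfate sulfotransferase gene, and Camk1d, a calmodulin kinase gene, all cKO libraries were below all WT libraries, but the adjusted p-values were 0.0509, 0.0945 and 0.0576. Without any 1 of the 3 WT libraries or cKO replicate 4, 0 start windows passed in either direction, as was true of all member windows. Without cKO replicate 3 there were 3 gains and 0 losses, and without cKO replicate 1 there were 17 and 9.

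In the group means, the direction of change followed the CpG content of the windows. Relative CpG content is given as the log2 ratio of a window's CpG density, with 0.5 added to its count of CG dinucleotides, to that of the whole genome (0.826% of known bases). In member windows at -1 or less, values were 1.68, 1.51 and 1.64 in WT and 1.66, 1.43 and 1.34 in cKO, with overlap. Between 0.5 and 1 they were 2.05, 2.03 and 2.10 in WT and 2.37, 2.54 and 2.51 in cKO, without overlap. The difference went from -0.130 through -0.0522, 0.0878 and 0.290 to 0.413 across the classes up to 1, and was 0.289 above 1, where most starts are. The share of windows that gained went from 0.0462% in the lowest class to 2.49% in the highest, and the share that lost was between 0.217% and 0.466% in all 6 classes.

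**Figure D4:**
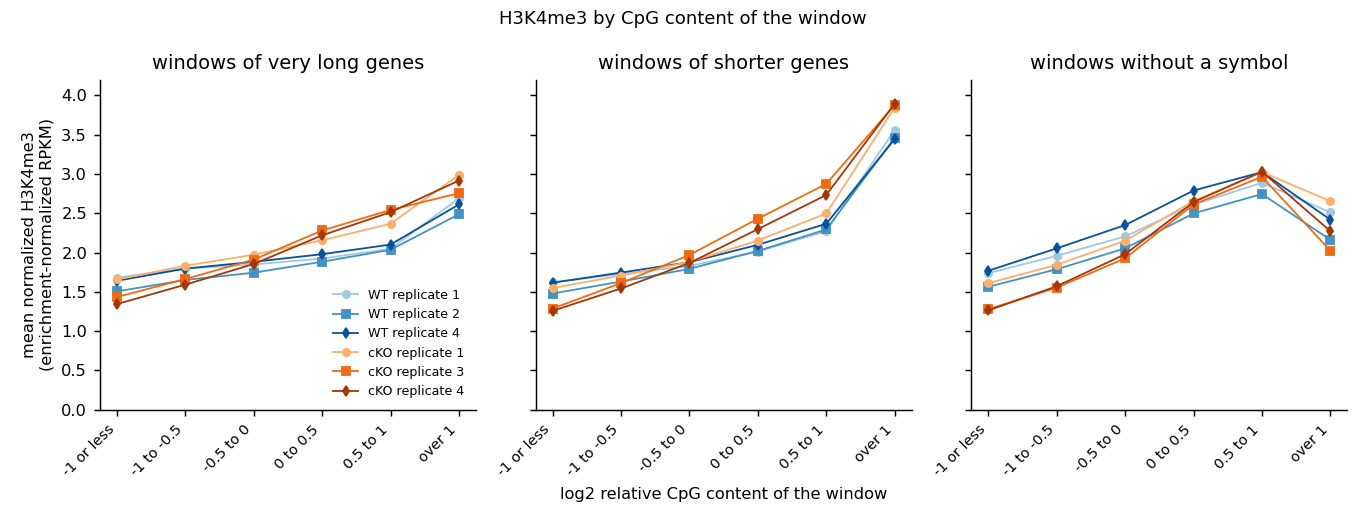
Mean enrichment-normalized RPKM by class of log2 relative CpG content of the window, for windows of very long genes, windows of shorter genes and autosomal windows without a symbol, with 1 line for each of the 6 libraries. In the windows of very long genes and of shorter genes the cKO libraries are above the WT libraries in the 3 classes over 0, and cKO replicate 1 runs between the groups in the classes from 0 to 1.

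Genes sorted in the same way. Genes were ranked by median CpG content and cut into 4 equal classes. In the lowest class, 1 of 130 was called higher and 6 lower, with a median difference of -0.154. In the highest class, 46 of 129 were called higher and 0 lower, with a median difference of 0.394. Gains went from 21 in the lowest class through 70 and 119 to 222 in the highest, and losses were 61, 29, 24 and 36. These counts are not scaled to the number of windows in a class. Median WT levels of the 4 classes were close, between 1.67 and 1.82. Over the 517 genes the rank correlation of CpG content with the difference was 0.70, and that of the WT level with the difference was -0.06. Genes are not independent replicates, and all points share the same 6 libraries. With cKO replicate 3 or 4 set against any WT library, the correlation of CpG content with the difference was 0.70 to 0.76. With cKO replicate 1 it was only 0.42, 0.01 and 0.26 against WT replicates 1, 2 and 4. The value at 0 reads was -1.02 in cKO replicate 3 and -0.700 in cKO replicate 4, against 0.785 in cKO replicate 1. In WT replicates 1, 2 and 4 that value was 0.810, -0.0359 and 0.300. The part of this scale in the correlation was not tested.

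Related genes were also read by group, with counts set against the 16.4% of all very long genes called higher, the 1.93% called lower and the 38.7% with all cKO libraries above all WT libraries. Differences between groups were not tested. Lists of 12 groups held 569 symbols, of which 288 were very long genes. Transcription factors and chromatin regulators had the highest median difference, 0.408. Of 34 such genes 13 were called higher and 0 lower, and in 24 every cKO library was above every WT library. They included Nfia, Sox5 and Zfp536, the retinoid-related receptor gene Rora (0.730), the zinc finger gene Zfp423 (0.748) and Glis3 (0.654). The median CpG content of this group was also the highest, at 0.22.

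Genes of cyclic nucleotide and lipid second messenger signalling had a median difference of 0.330. Of 19 such genes 3 were called higher, a share close to that of all very long genes, and 0 lower. In 12 of the 19 all cKO libraries were above all WT libraries. Prkca was the largest at 0.776 ± 0.111 (adjusted p = 0.00424), followed by Prkce, protein kinase C epsilon, at 0.714 and the phosphodiesterase gene Pde4b at 0.635. Of 55 genes of the cytoskeleton, trafficking and vesicle release 10 were higher and 0 lower, a share close to that of all very long genes, led by Trio and by Elmo1 (0.787) and Dock1 (0.687), whose products act together on Rac. Among 31 genes of the extracellular matrix 6 were higher and 0 lower, also close to that share, led by Nell2, Adamtsl1 and Spock1, a testican gene.

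Of 43 synaptic adhesion genes 4 were higher, led by the teneurin gene Tenm4 (0.733 ± 0.125, adjusted p = 0.00825) with Dscaml1, Dlgap2 and Tenm3, and 3 were lower, namely Cntnap5c, Cntn4 and Negr1, while the others did not pass. Their median difference was -0.0511 and their median CpG content -0.59. Neurotransmitter receptors had 3 of 15 higher, led by the AMPA receptor gene Gria1 (0.668 ± 0.129, adjusted p = 0.0135), and 1 lower. Cadherins and catenins had Cdh23, a cadherin of hair cell tip links, and Cdh4 higher and 0 lower of 13, with a median of -0.121.

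The remaining groups had 1 or 2 called members each. Slit3, a guidance ligand gene, was the only 1 of 15 axon guidance genes called (0.682 ± 0.118, adjusted p = 0.00883). Of 29 ion channel genes Kcnq1 and Ryr2 were higher, and the largest difference, at Kcnip1 (0.598 ± 0.184), had an adjusted p of 0.0695. Wwox was the only called gene of 13 at common fragile sites (0.427 ± 0.103, adjusted p = 0.0319). Of 7 RNA-binding protein genes Msi2 and Rbfox1 were higher, while Rbfox3 had a larger difference of 0.697 but cKO libraries of 1.76, 2.51 and 3.00 and an adjusted p of 0.106. Of 18 genes listed under growth signalling Cdkal1 alone was called, although it encodes a tRNA-modifying enzyme. The largest difference in this list was at Dclk1 (0.629, adjusted p = 0.0637). The 229 genes in no list had 37 higher and 6 lower and a median difference of 0.124.

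**Figure D5:**
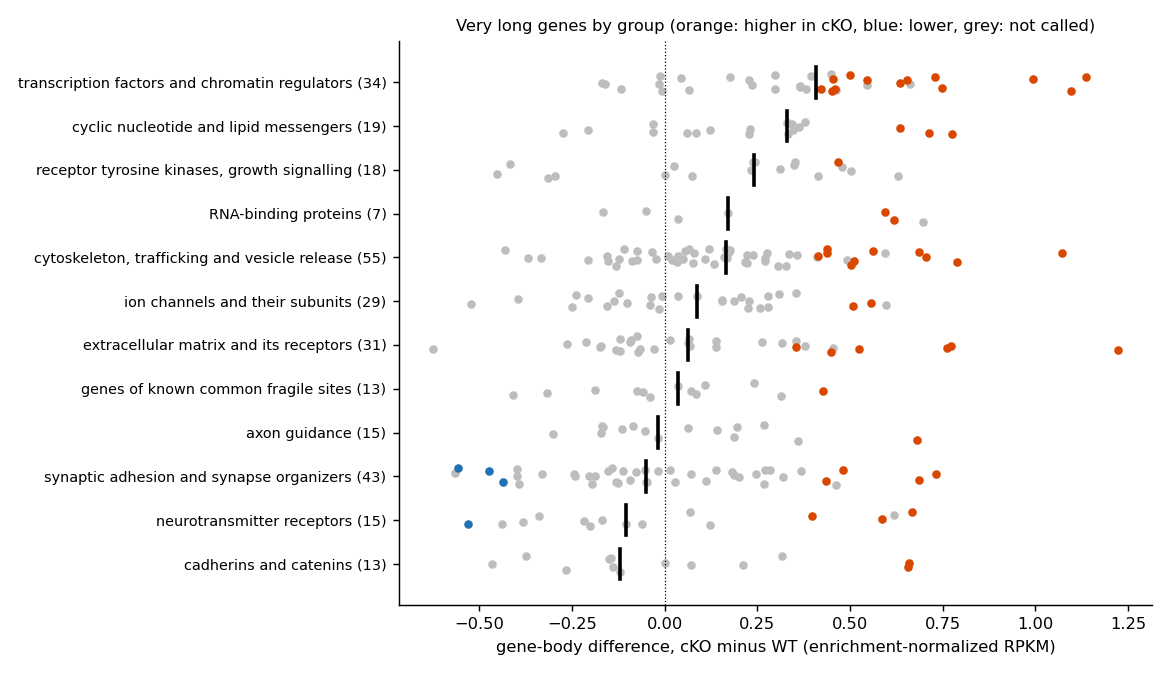
Gene-body difference between cKO and WT in enrichment-normalized RPKM for the very long genes of 12 groups, with the number of genes in brackets. Each point is 1 gene, orange if called higher in cKO, blue if called lower and grey if not called, and the black bar is the median of the group. Medians run from -0.121 for cadherins and catenins to 0.408 for transcription factors and chromatin regulators.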

How the data were processed

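H3K4me3 and input libraries of GV oocytes (about 200 per library) were compared between cKO and WT. The authors trimmed reads with Trim Galore 0.4.2, mapped them to GRCm38 with Bowtie2 2.2.9 and quantified 5 kb windows in SeqMonk. The deposited H3K4me3 score is enrichment-normalized RPKM, and the deposited input signal is reads per window scaled to library size. In the H3K4me3 columns every value was a whole number of reads within 0.1 of the step of 1 read. Groups came from the sample labels. The methods call the replicates biological, each a pool of oocytes, without giving the animals behind a pool, and p-values measure the spread between these libraries.

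Windows were tested with limma 3.58.1 (R 4.3.3) over all 544879 windows, and means over all windows of a symbol with limma over 23484 autosomal symbols, with a variance prior following log2 of the number of windows. P-values were adjusted by Benjamini-Hochberg and called under 0.05. Means per library were compared by exact two-sided permutation tests. Both fits were tested on simulated data. For genes the simulated spread was set to fall with the number of windows, so this cannot decide between variance priors. Gene models, starts and exons were GENCODE M21, which matched 516 of 517 symbols, 42 of them under another name. CpG and sequences came from GRCm38, and no sequence of chromosome 18 is shown. No low-value filter was used.

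The genes, the 12 gene groups and the marker lists were chosen with earlier results of these data known. Genes were named if they were among the 6 highest or lowest in WT, the 6 largest differences each way, the 5 with most gains or losses, the 5 largest window or start differences each way, the 10 longest, or the largest of a group; others were named after their values were seen. Some genes that meet this rule are not reported here. Alternatives were other scales and variance priors, edgeR 4.0.16 on the recovered reads, filters, gene definitions, a replicate block and leaving out each library.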

Additional observations from a re-analysis of the deposited data

How the results depend on the processing

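Of 1416 comparisons of named genes and windows with an alternative, 1066 kept their side of the threshold, 314 no longer passed and 36 newly passed. The sign turned in 66, all of them of genes or windows that did not pass in the reported test, and in 0 that did. Counts depended on the setting, and the causes were not tested. With log2(value + 1), quantile normalization or log2(RPM + 0.5), 0 windows and 0 start windows passed either way. The intensity trend gave 1349 gains, 551 losses and 11 start losses, and edgeR 984 gains, 315 losses and 4 start gains. Start losses numbered 7 at a mean of at least 1, 5 on autosomes only and 7 in windows with at least 1 read, a filter chosen after seeing the data. For gene bodies, the constant prior left 3 higher and 0 lower, the intensity trend 12 and 0, edgeR and log2(RPM + 0.5) 0 and 0 (130 and 140 at an unadjusted p under 0.05), the median of the windows 46 higher, a mean of at least 1 20 lower and symbols with at least 20 windows 21 lower. Genes of 100 or more windows, which are fewer, held 230 gains, 90 losses, 3 start gains, 0 start losses, 28 higher and 5 lower. Start minus interior reversed to -0.200 on log2(RPM + 0.5), where the median gene-body difference was 0.18. Leaving out 1 library gave 0 to 1109 gains, 0 to 450 losses, 0 to 17 start gains, 0 to 9 start losses, 26 to 164 genes higher and 0 to 64 lower; the mean difference was 0.0729 to 0.137 and start minus interior 0.00972 to 0.240. The labels share replicate numbers 1 and 4 but do not say that they pair libraries; deviations correlated at 0.255 and 0.00971 for these numbers and -0.191 to 0.105 otherwise. With a replicate block there were 1858 gains, 1083 losses, 59 start gains, 25 start losses, 47 genes higher and 16 lower. Leaving out symbols that span other genes, leaving out windows with other coding starts and taking the first window of a symbol as its start, all chosen after seeing the data, kept each count within 1.5 times. What depth limits was not tested.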
